A study of Homo sapiens with 6 samples.

Results

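The classical SR proteins are splicing factors that carry an RNA recognition motif and a tail rich in arginine and serine. 8 of their genes, SRSF1, SRSF2, SRSF3, SRSF4, SRSF5, SRSF6, SRSF7 and SRSF9, were followed here through alternative splicing (AS) events. The members were all events that the deposited tables list under these gene symbols with a mean of at least 10 junction reads over the 6 libraries. This rule took 45 events, none of them below the minimum of reads, out of 66395 events tested in the whole series. Of these, 27 were skipped exon (SE) events, 6 were retained intron (RI) events, 5 were mutually exclusive exon (MXE) events, and 4 and 3 were choices of a 3ʹ and a 5ʹ splice site (A3SS and A5SS). SRSF5 had 16 of the events, SRSF4 had 10, SRSF7 had 7, SRSF1 had 6, SRSF2 and SRSF3 had 2 each, and SRSF6 and SRSF9 had 1 each.

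NCI-H1975 is an established human cell line from a lung adenocarcinoma. One group of 3 libraries came from cells that took up the PCDNA3.1-SAM68 plasmid, and the control group of 3 libraries came from cells given the PCDNA3.1 plasmid, each at 2 µg per well with lipofectamine for 48 h. SAM68, the product of KHDRBS1, is an RNA-binding protein that takes part in splicing, and the design asks which splicing events differ when it is overexpressed. The transfection was transient, the libraries were described in the study's methods as biological replicates, and all come from 1 cell line. KHDRBS1 had 311, 328 and 316 reads per 1000000 junction reads (rpm) in control and 1230, 1260 and 1276 rpm in SAM68, a log2 fold change of 1.98 (SE 0.05), and reads of the plasmid may count here with those of the gene. Of the lung and epithelial markers checked, the keratins KRT8 and KRT18 were well read (336 and 482 rpm in control, 237 and 525 rpm in SAM68), KRT7, MUC1 and NAPSA were under 5 rpm, and EPCAM, CDH1, KRT19, NKX2-1 and SFTPB have no event in the tables. Of 6 markers of blood, endothelial and connective tissue cells, only CD79A was listed, at under 1 rpm.

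SR proteins bind enhancer sequences in exons and recruit the splicing machinery, and kinases of the CLK and SRPK families phosphorylate their tails. Many SR genes hold an exon that brings a stop codon into the reading frame, called a poison exon. An mRNA that includes it can be removed by nonsense-mediated decay (NMD), and SR proteins are known to promote inclusion of poison exons in their own or each other's transcripts, which holds their levels steady. Since NMD removes the included form, its share among the remaining mRNA is a steady-state level and not a rate of splicing.

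An SE event was classed as a poison exon where the exon is absent from the reference (MANE Select) transcript and its inclusion in the reference frame gives an early stop, in the exon or after it, at least 50 nt before the last exon junction. 13 events in 6 genes met this, from 69 nt to 1743 nt long, and 12 of the 13 exons hold the stop codon themselves. SRSF1 and SRSF2 had none. The events of SRSF2 include 1 exon after the stop codon instead, in the 3ʹ UTR. The start of a poison exon of SRSF3, SRSF6, SRSF7 and SRSF4 is shown, the first 3 because they carry the comparisons that follow and that of SRSF4 because it shares sequence with that of SRSF6. Each line gives the last 20 nt of the intron and then the exon up to its stop codon, which is in capitals, as RNA-sense DNA of GRCh38.
SRSF3, 456 nt exon in intron 3, chr6:36599801-36599854, plus strand: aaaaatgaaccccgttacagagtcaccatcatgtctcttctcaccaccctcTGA
SRSF6, 268 nt exon in intron 2, chr20:43459133-43459304, plus strand: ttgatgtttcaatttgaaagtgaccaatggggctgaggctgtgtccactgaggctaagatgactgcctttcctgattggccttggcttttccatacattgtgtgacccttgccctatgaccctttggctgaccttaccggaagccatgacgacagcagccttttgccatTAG
SRSF7, 449 nt exon in intron 3, chr2:38749319-38749366, minus strand: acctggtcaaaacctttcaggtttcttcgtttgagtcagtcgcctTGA
SRSF4, 195 nt exon in intron 2, chr1:29160018-29160078, minus strand: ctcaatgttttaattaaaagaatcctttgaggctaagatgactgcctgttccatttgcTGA

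Translation in the reference frame stopped after 124 of 164 residues with the SRSF3 exon, after 135 of 344 with the SRSF6 exon and after 137 of 238 with the SRSF7 exon. With the SRSF4 exon it stopped after 96 of 494 residues. Between poison exons of different genes, the longest identical run was one of 20 nt, shared by SRSF4 and SRSF6. It is in capitals in the next pair of lines, each with up to 15 nt of exon on either side.
SRSF4, chr1:29160017-29160058, minus strand: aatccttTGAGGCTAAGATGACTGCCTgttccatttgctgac
SRSF6, chr20:43459166-43459215, plus strand: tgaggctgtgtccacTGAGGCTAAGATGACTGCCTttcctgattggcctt
The core motif of SAM68 binding is UAAA, and the letters TAAA were searched on the transcript strand in the 100 nt of intron on each side. They were found upstream of 7 and downstream of 9 of the 13 poison exons, beside 40.9% and 42.1% of the 38792 distinct SE exons tested, this being a description of the letters alone. Some events end at the same splice site, so the 9 downstream matches are in 6 of 10 distinct windows. The SRSF3 exon had 1 match upstream and 2 downstream, and the SRSF6 exon had 2 and 5. The SRSF7 exon had 2 and 2, and the SRSF4 exon had 1 and 1.

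Percent spliced in (PSI) is the share of the form that includes an exon or keeps an intron, with reads of each form divided by its effective length, and ∆PSI is SAM68 minus control in percentage points. An event was called where ∆PSI was 10 points or more in either direction and the adjusted p of a quasi-binomial test (Benjamini-Hochberg) was under 0.05. None of the 45 events of the 8 genes was called (0 of 45), against 17 events, or 0.0256%, among all events tested. None had an adjusted p under 0.05 at any ∆PSI (0.0964% of all events did), and the smallest was 0.0879. 6 of the 45 (13.3%) had an unadjusted p under 0.05, where the share among all events was 8.46%. In 5 of the 45 (11.1%) the PSI of the groups did not overlap, 1 higher and 4 lower in SAM68, where the share among all events was 6.1%, 3.08% higher and 3.02% lower. The members are not independent in these counts, since events of 1 gene share junctions and reads. The median absolute ∆PSI was 0.338 points in the 45 events and 1.24 points in all events, and the member events were read more deeply (median of 663 reads per library against 111).

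**Figure D1:**
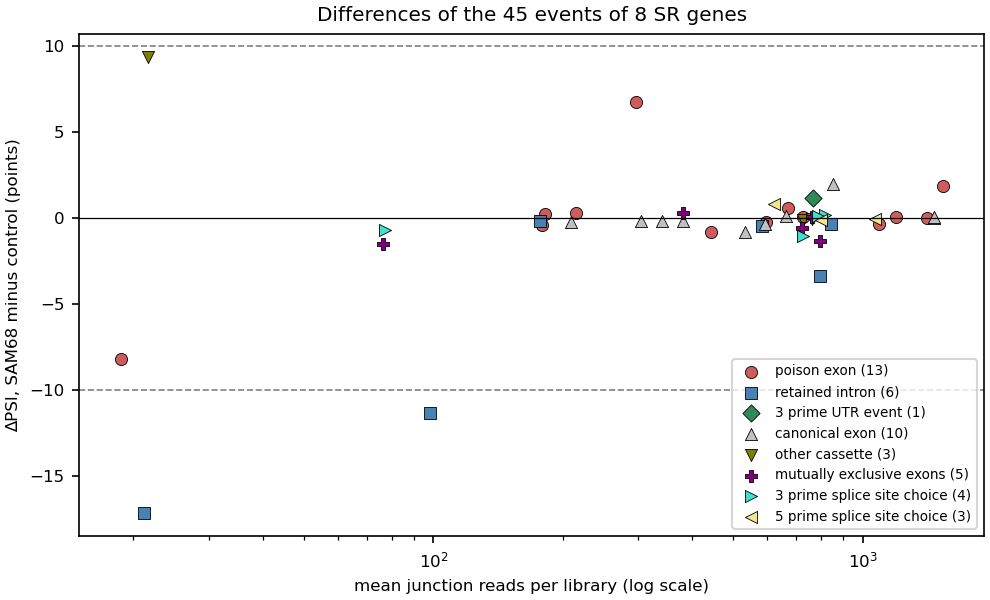
Each point is 1 of the 45 events of the 8 SR genes, with the mean junction reads per library on a log scale and the ∆PSI in points. Symbols give the class of the event and dashed lines mark 10 points in either direction. The 2 events past the lines, an SRSF1 and an SRSF5 intron, had means of under 100 reads per library, and the SRSF6 poison exon stands at 6.75 points.

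Of the 13 poison exons, the 456 nt exon of SRSF3, the 268 nt exon of SRSF6 and the 449 nt exon of SRSF7 were read at a measurable level. PSI was low or near 0 for the 98 nt exon of SRSF3, the 69 nt exon of SRSF7, the SRSF9 exon and the SRSF4 exons of 195, 228 and 184 nt. The 136 nt exon of SRSF4 had a high PSI, but within transcripts that are themselves rare. 0 of 13 were called, where the share of SE events called was 0.0105%. 4 had an unadjusted p under 0.05 (8.59% of all SE events did), and in 1 of 13 the groups did not overlap (4.72% of all SE events). Of the 4, 2 rest on 6 reads of SRSF5, described last.

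SRSF3, a small SR protein known to control its own poison exon, had the clearest separation among the poison exons. Control libraries had a PSI of 6.30%, 6.11% and 6.30% for its 456 nt exon, and SAM68 libraries had 8.04%, 8.82% and 7.41%. All SAM68 libraries stood above all control libraries. The means were 6.24% ± 0.107 and 8.09% ± 0.705 (SD, n = 3 each), a ∆PSI of 1.85 points with an unadjusted p of 0.000974 and an adjusted p of 0.254, which did not pass. The reads behind each library ran from 1419 to 1660, and the Wilson 95% interval of the highest control library, 5.42% to 7.31%, reached into that of the lowest SAM68 library, 6.47% to 8.48%. Reads of the included form were 29.6, 30.2 and 30.4 rpm in control and 39.0, 42.2 and 38.0 rpm in SAM68, a ratio of 1.32 (exact two-sided permutation p = 0.1, which is the lowest 3 against 3 libraries can give). Reads of the skipped form had means of 226.4 and 226.1 rpm (exact permutation p = 1). The included form separated the groups and the skipped, coding form did not. A shorter SRSF3 exon of 98 nt in intron 2 had 2 inclusion reads in 1 control library and none in the others.

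SRSF6 had a higher poison exon PSI than SRSF3, and a wider spread between libraries. The PSI of its 268 nt exon was 12.2%, 22.1% and 14.8% in control and 24.8%, 20.3% and 24.2% in SAM68. The groups overlapped, because 1 control library lay above the lowest SAM68 library. The means were 16.3% ± 5.14 and 23.1% ± 2.44 (SD, n = 3 each), a ∆PSI of 6.75 points with an unadjusted p of 0.00768 and an adjusted p of 0.443. It rests on 240 to 340 reads per library, so that the Wilson 95% interval of the lowest library was 9.46% to 15.5%. Included reads had means of 13.9 and 19.5 rpm (exact permutation p = 0.2) and skipped reads of 35.2 and 32.2 rpm (exact permutation p = 0.3), control first.

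SRSF7, which also shuttles between nucleus and cytoplasm, has a poison exon in intron 3 that is listed with a longer and a shorter form. The PSI of the 449 nt form was 7.53%, 7.94% and 8.41% in control and 6.44%, 9.63% and 9.56% in SAM68 (∆PSI 0.587 points, adjusted p = 0.779). The SAM68 libraries spread to both sides of the control libraries. The direct choice between their 3ʹ splice sites gave the longer form 100% in 5 libraries and 97.8% in the other, where the shorter form had 1 read. The row of the 276 nt form, with a mean PSI of 2.55% in control and 2.29% in SAM68 (adjusted p = 0.738), therefore rests almost wholly on the downstream junction that both forms share. Retention of the whole of intron 3 (875 nt, chr2:38748654-38749528) was at 1.06%, 1.65% and 1.79% in control and 1.15%, 0.674% and 1.22% in SAM68 (adjusted p = 0.675). A 69 nt poison exon in intron 5 stayed under 1% in every library.

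SRSF4, the longest of the 8 proteins and a close relative of SRSF6, carries 4 poison exon events, 3 of them at a low PSI. The 195 nt exon that shares the 20 nt run with SRSF6 had PSI values of 2.06%, 1.70% and 0.796% in control and 0.319%, 2.96% and 1.86% in SAM68, on 157 to 209 reads per library (adjusted p = 0.867). Its 228 nt form, from an earlier 3ʹ splice site and with the same downstream junction, reached 1.55% at most. The 184 nt exon of intron 1 reached 1.88% in 1 SAM68 library and was at 0 in both others and in 1 control library. These values of the 3 exons rest on 0 to 10 inclusion reads a library, and no difference was detectable at this depth. The 136 nt exon is measured only in transcripts with the 184 nt exon, at 88.2%, 100% and 100% in control and 100%, 63.6% and 100% in SAM68, on 16 to 22 reads per library (∆PSI -8.20 points, adjusted p = 0.566). Both forms of this row stop early, after 161 residues with the 136 nt exon and after 56 residues without it. Its ∆PSI is therefore not a change between a coding and a poison form. Another exon of intron 1, of 175 nt, is not among the poison exons, because the frame had already stopped before it in the upstream exon of its row, and it is named here after its values were seen. Its included form had 13, 11 and 8 reads in control and 26, 31 and 33 in SAM68, or 1.78 and 5.28 rpm on average, without overlap (ratio of 2.97, exact permutation p = 0.1). Its skipped form had 4 reads in each group, and PSI overlapped (∆PSI 9.37 points, adjusted p = 0.566). SRSF9 had 4 reads of its 90 nt exon in 1 SAM68 library and none in the other libraries, and a count of 0 in the control libraries allows up to 0.0775% of their 3872 reads.

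The remaining 2 poison exon events belong to SRSF5, and their exons run across reference exons with the introns between them kept (1743 nt and 1359 nt). Their PSI was 100% in 5 libraries and 99.0% and 97.5% in the same SAM68 library, where the skipped form had 6 reads. Their unadjusted p-values of 0.0299 and 0.0255 rest on those 6 reads, and the adjusted values were 0.556 and 0.538. The fully spliced mRNA also holds the downstream junction of both exons and the upstream junction of the 1743 nt exon, so these PSI values do not measure the poison form.

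**Figure D2:**
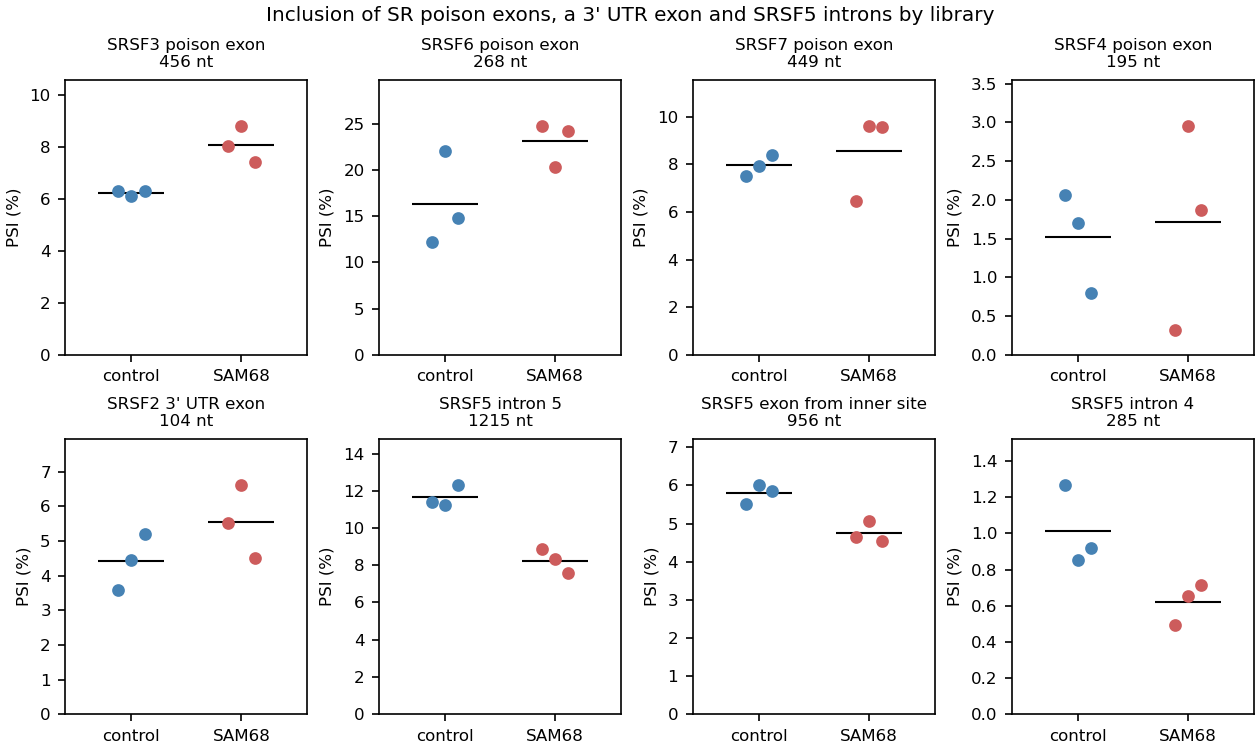
PSI in percent of 4 poison exons, the 3ʹ UTR exon of SRSF2, and of SRSF5 introns 5 and 4 and the exon from the site inside intron 5, with 1 point per library and a bar at the group mean. Every vertical axis starts at 0 and has its own scale. The SRSF3 exon and the 3 SRSF5 events show groups that do not overlap, and the other panels show overlap.

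The part of the SRSF5 transcript between exons 4 and 6 was read more directly in the introns. SRSF5 is an SR protein whose mRNA is known to keep these introns in part of its transcripts. Intron 5 (1215 nt, chr14:69769252-69770466) was retained at 11.4%, 11.2% and 12.3% in control and at 8.85%, 8.31% and 7.58% in SAM68. All SAM68 libraries lay below all control libraries. The means were 11.7% ± 0.583 and 8.25% ± 0.637 (SD, n = 3 each), a ∆PSI of -3.41 points with an unadjusted p of 0.000249 and an adjusted p of 0.0879, the smallest among the 45 events and still short of the threshold. Reads of the retained form were 30.5, 28.0 and 27.9 rpm in control and 21.9, 17.4 and 20.9 rpm in SAM68 (ratio of 0.697, exact permutation p = 0.1), while the spliced form had means of 109.5 and 112.2 rpm (exact permutation p = 0.9). The retained form separated the groups and the spliced form did not. The reads of the spliced form are of the junction from exon 5 to exon 6, which the fully spliced mRNA holds too, while the row itself is listed with intron 4 kept.

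Other events at the same place of SRSF5 had a lower mean PSI in SAM68 too. Those inside intron 5 share reads with its row, so they do not add to it independently. Intron 4 adjoins exon 5 in the same transcript, and how far its reads are shared was not tested. A row of the first 259 nt of intron 5 sets their retention against the splice to a site inside the intron, which had 9 to 23 reads per library. The main splice from exon 5 to exon 6 (524 to 716 reads) is not counted in it, so its PSI is not the level of retention of intron 5. The PSI was 84.3%, 76.3% and 85.0% in control and 79.8%, 71.0% and 60.7% in SAM68, with overlap (∆PSI -11.4 points, adjusted p = 0.536). The ∆PSI was -6.44 points without SAM68 replicate 3 and -7.52 points without length normalisation. The row of the exon beginning at that inner site had groups without overlap (adjusted p = 0.671). Its PSI was 5.50%, 6.02% and 5.86% in control and 4.66%, 5.07% and 4.53% in SAM68. Its inclusion reads (80, 89 and 74 in control, 70, 56 and 66 in SAM68) also count reads from intron 5 into exon 6. The splice to the inner site itself had 10, 16 and 9 reads in control and 10, 10 and 23 in SAM68, with overlap. The row therefore does not show lower use of the inner site. Intron 4 (285 nt, chr14:69768897-69769181) was retained at 1.27%, 0.851% and 0.919% in control and 0.492%, 0.653% and 0.713% in SAM68, without overlap, on 9 to 22 retained reads per library (adjusted p = 0.607). A choice of 5ʹ splice sites in the 5ʹ UTR of SRSF5 had means of 13.1% ± 0.896 and 13.9% ± 0.896 (SD, n = 3 each, adjusted p = 0.802). For the choices of a 3ʹ splice site 9 nt apart at exon 3, and at exon 4 or exon 5 (384 nt apart), the PSI was 99.6% to 100% and 99.2% to 100% (adjusted p = 0.671 and 0.931), from counts that also allow another reading. The longer form of the choice at exon 4 or exon 5 is listed with intron 4 kept. Its junction from exon 3 to exon 4 is also in the fully spliced mRNA, so this PSI does not measure the form with the intron. The inclusion of exon 4, the most read SRSF5 event, was 99.6% to 100% in all libraries.

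**Figure D3:**
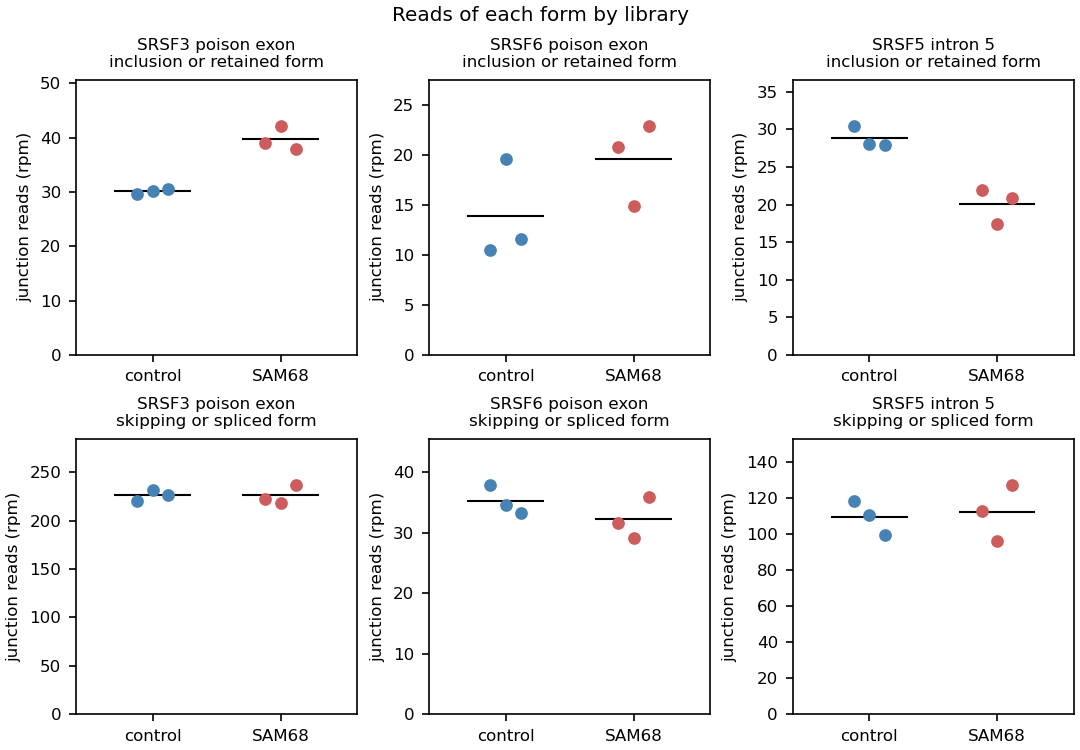
Junction reads in rpm of the included or retained form (upper row) and of the skipped or spliced form (lower row) for the SRSF3 exon, the SRSF6 exon and SRSF5 intron 5, with 1 point per library and a bar at the group mean. In the upper row the SRSF3 groups (29.6 to 30.4 against 38.0 to 42.2 rpm) and the SRSF5 groups (27.9 to 30.5 against 17.4 to 21.9 rpm) do not overlap, and in the lower row they do.

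SRSF2, the SR protein also known as SC35, has no poison exon of the coding region here. Its 104 nt exon of the 3ʹ UTR (chr17:76735772-76735875) adds a junction 111 nt after the stop codon. Its PSI was 3.57%, 4.46% and 5.21% in control and 5.52%, 6.62% and 4.51% in SAM68, with overlap (∆PSI 1.14 points, unadjusted p = 0.0730, adjusted p = 0.566). The ∆PSI was 0.603 points without SAM68 replicate 2 and 0.715 points without control replicate 1. The coding exon of SRSF2 used its main 5ʹ splice site at 99.7% to 100% in the 6 libraries.

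SRSF1, the founding member of the family, regulates itself through splicing at its 3ʹ end. Its exon 3 was included at 100% in 5 libraries and 99.9% in the other, and the row that sets exon 3 against splicing within the last exon had PSI values of 96.3%, 94.6% and 95.5% in control and 94.2%, 93.7% and 94.6% in SAM68. The groups did not overlap, and the ∆PSI was -1.35 points (unadjusted p = 0.158, adjusted p = 0.733). Since skipping of exon 3 itself was read once in all 6 libraries, the other form of this row is almost wholly the splice from chr17:58005414 to 58005041 within the last exon, which had means of 6.55 and 7.36 rpm (exact permutation p = 0.5). Reads of that splice overlapped between the groups. The exon 3 form had means of 138.2 and 118.3 rpm, without overlap. Since nearly all SRSF1 mRNA holds exon 3, mRNA with the splice within the last exon holds it too. The PSI of this row is therefore not a choice between 2 forms. A further row covers the 759 nt between exon 3 and the distal part of the last exon (chr17:58005042-58005800). It sets unspliced reads only against the rare direct splice between them, which had 2 to 14 reads per library. The usual splice from exon 3 to the start of the last exon is not counted in it, so its PSI is not a level of retention in SRSF1 mRNA. The PSI was 82.6%, 87.1% and 28.2% in control and 47.8%, 52.4% and 46.2% in SAM68, on 16 to 29 reads per library. This is the largest ∆PSI of the 45 events, -17.2 points, and it rests on few libraries, since without control replicate 3 it was -36.1 points and without control replicate 2 it was -6.62 points (adjusted p = 0.747 with all libraries).

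The most read events of the other genes lay at like levels in both groups. Exon 7 of SRSF7, of 36 nt, had a mean PSI of 79.6% ± 2.34 in control and 81.6% ± 1.53 in SAM68 (SD, n = 3 each, adjusted p = 0.566), and a 9 nt choice at the end of its exon 5 had 93.8% ± 0.874 and 93.7% ± 0.458. Exon 4 of SRSF4, of 215 nt, was included at 99.3% to 100% in the 6 libraries. Retention of SRSF4 intron 2 (888 nt) stayed under 1% in every library.

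For the level of the genes, the reads of the most read event of each gene were scaled to the sum of such reads in a library (rpm). These levels depend on the event and are not set against each other between genes. None of the SR genes (0 of 8) had an adjusted p under 0.05 with limma, where 42 of 10147 genes, or 0.414%, were called. SRSF1 had 270.0, 270.2 and 252 rpm in control and 233, 219 and 247 rpm in SAM68, a log2 fold change of -0.18 (SE 0.06, adjusted p = 0.214). SRSF9 had 223, 213 and 208 rpm in control and 193, 199 and 180.3 rpm in SAM68, a log2 fold change of -0.17 (SE 0.07, adjusted p = 0.265). SRSF7 had 153, 151 and 148 rpm in control and 146, 139 and 131 rpm in SAM68, a log2 fold change of -0.12 (SE 0.07, adjusted p = 0.525), and of -0.01 with the median event of the gene. In these 3 genes all SAM68 libraries lay below all control libraries, which held in either direction for 16.8% of all genes. The log2 fold changes of the others were -0.08 for SRSF2, 0.05 for SRSF3, -0.04 for SRSF4, -0.01 for SRSF5 and 0.07 for SRSF6, all with overlap. The median over the 8 genes was -0.06, and that over all genes was -0.03.

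**Figure D4:**
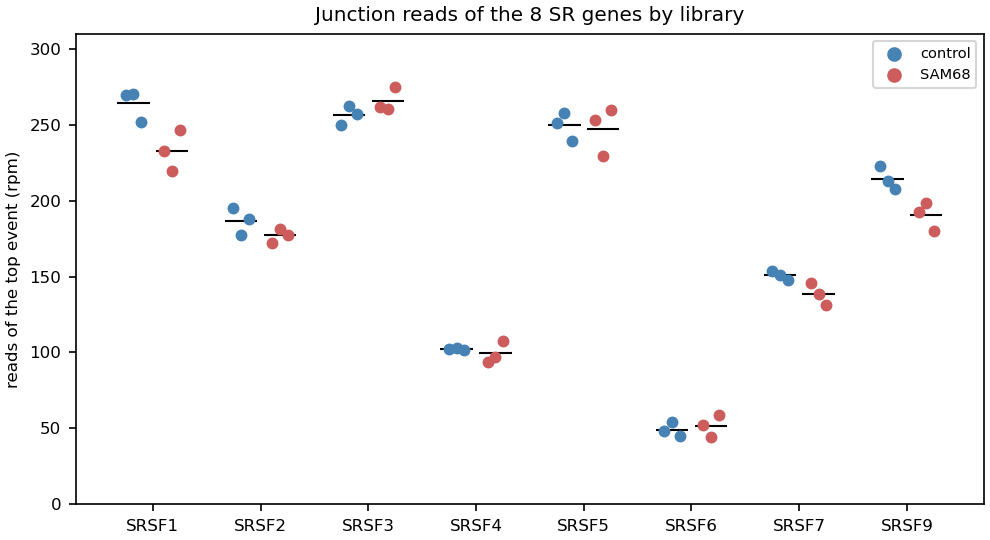
Reads of the most read event of each SR gene in rpm, with 1 point per library, control left and SAM68 right, and a bar at the group mean. The SAM68 points of SRSF1, SRSF7 and SRSF9 lie below the control points, and the groups of the other 5 genes overlap.

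A list of 24 genes that act with the SR proteins was read the same way: SR-related activators (TRA2A, TRA2B, SRSF10, SRSF11, SRRM1, SRRM2), the kinases CLK1 to CLK4, SRPK1, SRPK2 and PRPF4B, the import receptor TNPO3, and the NMD factors of the UPF and SMG families. Of its 193 tested events, in 23 genes, none was called (0.0256% of all events were) and 23, or 11.9%, had an unadjusted p under 0.05 (8.46% of all events), 12 higher and 11 lower in SAM68. The median absolute ∆PSI was 1.71 points. In junction reads 0 of 23 genes were called (0.414% of all genes were), and the median log2 fold change was -0.14.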

How the data were processed

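RNA of NCI-H1975 cells, 3 libraries with the SAM68 plasmid and 3 with the empty plasmid, was sequenced as paired-end reads. The authors filtered the reads, aligned them with hisat2 to GRCh38 and ran rMATS; the submitters' processing notes name CASAVA 1.4, fastp 0.20.0 and HISAT2 2.1.0. The 5 deposited tables give, per event, raw junction read counts of each form as lists of 3 per group, effective lengths and inclusion levels. They also hold the authors' rMATS p-value and FDR and, as a score, the difference of their inclusion levels, which were not used. The first list was taken as control, since the study assigns its PKM inclusion levels to control libraries. Lists carry no replicate numbers, so library numbers are positions in a list. In the A3SS table a spreadsheet had regrouped digits, and 162 events were recovered and 113 left out; for 2 SRSF5 events (99% to 100% PSI) the printed counts also allow another reading.

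The splice sites of 38792 distinct SE exons were read in hg38, where 99.9% have AG before the exon and 99.93% have GT or GC after it. Exons and frames came from GENCODE 44, which holds 11618 of the 11653 genes. The 66395 events that averaged 10 reads or more entered a quasi-binomial model whose dispersion was moderated within each type with squeezeVar of limma 3.58.1 (R 4.3.3), not below 1, with an F test and Benjamini-Hochberg adjustment within type. Events with no spread were left out when the prior was estimated. For genes, log2(rpm + 0.5) entered limma (eBayes, trend) for 10147 genes. This replaces the count model planned at first, which was not run. Single values of 3 against 3 libraries were tested with exact two-sided permutation tests, whose smallest p is 0.1. Both tests were checked on simulated counts, in which the event test found few of the shifts of 10 points in the share of included reads and most of the larger ones put in, so 0 calls do not show that there were no differences of that size.

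Depth was 16951876 to 19737729 SE junction reads per library, and a read can count in several events. Wilson 95% intervals, and the 3 reads that a count of 0 allows, reflect counting error alone. The 8 genes, the pathway list and the classes were chosen with earlier results of these data known. The text names all 8 genes and KHDRBS1, the most read event of each gene, the most read event of each distinct poison exon, 3ʹ UTR exon, retained intron or splice site choice, and at most 3 further events with an unadjusted p under 0.05 and no overlap. The SRSF1 row of exon 3, at a larger p, was named after its values were seen.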

Additional observations from a re-analysis of the deposited data

How the results depend on the processing

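The 45 SR events and the 13 poison exons gave 0 calls under each alternative run for them: unmoderated dispersions, limma on the logit of PSI, a likelihood ratio test on pooled counts, a minimum of 20 reads or none, adjustment over all 5 types, PSI without length normalisation, no limit on ∆PSI, summed rows of 1 exon, and, chosen after seeing the data, 1 shared dispersion per type. With the limit of 10 points kept, a change of test, dispersion or adjustment could not call a poison exon, since the largest ∆PSI among them was 8.20 points in either direction. Only 2 of the 45 events passed that limit. The likelihood ratio test gave the SRSF3 and SRSF6 exons and SRSF5 intron 5 an adjusted p under 0.05, and their ∆PSI alone kept them from a call. The 8 SR genes gave 0 calls with no minimum of reads, a log2 fold change limit of 1, the median event of a gene and, added later, median-of-ratios scaling and voom. Leaving out 1 library at a time, the counts ranged from 0 to 0, also for the pathway list. For the pathway list, 7 events were called with the likelihood ratio test, which ignores the spread between libraries, 1 (a PRPF4B intron) with no minimum of reads, and 1 (the same CLK4 exon) with summed rows and with the shared dispersion. The number of SR events with an unadjusted p under 0.05 ran from 2 to 7 with a library left out, was 0 with limma on the logit and 14 with the likelihood ratio test. Of the 13 poison exons, 4 in the report, it ran from 1 (without control replicate 1 or 3) to 5 (without SAM68 replicate 2 or 3) with a library left out, and was 1 with unmoderated dispersions and 0 with limma on the logit.

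The SRSF3, SRSF6 and SRSF5 intron 5 differences kept their sign throughout. Their adjusted p ran from 0.000863 to 0.899, from 0.00256 to 0.896 and from 0.000164 to 0.886, the lowest in each from the likelihood ratio test, and was 0.126, 0.199 and 0.0668 with the shared dispersion. With a library left out, ∆PSI ranged from 1.49 to 2.19, 4.67 to 9.62 and -3.71 to -3.08 points. Without length normalisation the differences were 3.22, 9.61 and -5.65 points, and those of the first part of SRSF5 intron 5, SRSF5 intron 4, the site inside intron 5, the SRSF1 intron and the SRSF2 exon were -7.52, -0.77, -1.88, -10.3 and 1.88 points. SRSF5 junction reads changed sign with median-of-ratios scaling (log2 0.02) and without control or SAM68 replicate 2 (0.01 and 0.04), and SRSF6 without SAM68 replicate 3 (-0.03), none of them called. With the median event of a gene, the log2 change was -0.01 in SRSF7 and in SRSF2, -0.12 in SRSF4 and -0.11 in SRSF5.

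No paired analysis was possible because the lists carry no replicate numbers. The count models with TMM or other size factors planned for genes were not run; median-of-ratios scaling and voom within limma were added. The SRSF4 events with few reads in all are limited by depth.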
